A study of Homo sapiens with 6 samples.

Results

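Peaks of plasminogen activator inhibitor-1 (PAI-1) chromatin immunoprecipitation whose midpoint lay in the 3′ untranslated region (3′ UTR) of a protein-coding gene are described here. A peak was counted when its midpoint fell in the untranslated part after the coding sequence of a protein-coding transcript and in no coding sequence (GENCODE annotation on GRCh37, the same assembly as hg19). Of 380031 peaks in 4 lists, 4233 met the rule, and identical intervals within a list were counted once. Over the 4 lists these were 3870 distinct intervals, which merged into 2862 separate places in 2371 genes. A further 36 and 25 peaks of the RT112 replicates and 23 and 37 of the UM-UC-3 replicates had the midpoint in the 3′ UTR of one transcript and the coding sequence of another, and were left out.

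The study sequenced DNA pulled down with an antibody against PAI-1 from RT112 and UM-UC-3, established human bladder cancer cell lines with no genetic change or treatment named for these samples. Each line had 2 biological replicates, so n = 2 throughout for a cell line, and every test over libraries was limited by that number. Replicates of 1 line share many peaks, so the 4 libraries are not independent of each other. The input libraries, 1 for each line with no antibody, were not analysed here. The peak lists hold intervals and a score but no read counts, so the sequencing depth behind each list is unknown.

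The 3′ UTR is the stretch of a messenger RNA between the stop codon and the cleavage and polyadenylation site, where microRNAs and RNA-binding proteins attach and set how stable the message is and how much of it is translated. In the genome it is ordinary transcribed DNA at the end of a gene, usually AT-rich and in one long exon. PAI-1 is a secreted inhibitor of the tissue and urokinase plasminogen activators that is also seen inside cells.

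Sequences are given for 8 of these peaks, the 2 best-ranked of each line and the 4 best-ranked of those found in every library. Each is the reference sequence of the 30 bases at the peak midpoint, the midpoint being base 15, written 5′ to 3′ in the direction of the mRNA (GRCh37). Capitals mark the longest unbroken run of purines (A or G) or of pyrimidines (C or T). DSCAM and SIK3 had the best-ranked 3′ UTR peaks of RT112, IGF1 and NDRG2 those of UM-UC-3, and VAMP1, ZSCAN20, XPO4 and ACSM2B had peaks in all 4 libraries. The peak of RT112 replicate 1 gave the midpoint, or that of UM-UC-3 replicate 1 for IGF1 and NDRG2.
DSCAM (chr21:41384387-41384416, minus strand): gTTTCTTTTTTaatttaatgagacactctt
SIK3 (chr11:116716034-116716063, minus strand): tgttttgttttgtttttggtatgTTTTCTT
IGF1 (chr12:102811368-102811397, minus strand): gccctagaaagcgcAAAGAAAGAcagtggc
NDRG2 (chr14:21484922-21484951, minus strand): ataaactgtAGAGGAAtctgagtaccgtta
VAMP1 (chr12:6573668-6573697, minus strand): TCTCTTTCTCTTTTCCgtctgggacttcct
ZSCAN20 (chr1:33965010-33965039, plus strand): tgtcctgctgtggCCTCTCCTCTTaggatc
XPO4 (chr13:21354823-21354852, minus strand): ttttgtctggtgtaaagtatgaCTTTTaat
ACSM2B (chr16:20548186-20548215, minus strand): aaaaataattGAAGGGAGAAtcagaaaaat

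The runs of one base class were 16 bases long at VAMP1, 11 at ZSCAN20 and 10 at DSCAM and at ACSM2B. They were 9 bases long at IGF1, 7 at SIK3 and NDRG2, and 5 at XPO4. In 4 further peaks found in all 4 libraries, at NOVA2, METTL13, ASTN1 and FRK, they were 5 to 7 bases long, so long runs were not general. Over the whole peak, purines on the mRNA strand made up 37.1% at VAMP1 and 32.5% at ZSCAN20, but 88.5% at ACSM2B and 67.1% at IGF1. At XPO4 and those 4 further peaks the share lay between 41.5% and 51.4%. The VAMP1 and ZSCAN20 peaks were thus pyrimidine-rich and the ACSM2B and IGF1 peaks purine-rich on the strand of the message.

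How many peaks lay in 3′ UTRs was compared first. RT112 replicate 1 had 1099 such peaks of 96423, RT112 replicate 2 had 625 of 60227, UM-UC-3 replicate 1 had 1219 of 109287 and UM-UC-3 replicate 2 had 1290 of 114094. As a share of all peaks these were 1.14%, 1.04%, 1.12% and 1.13%, in the same order. The mean share was 1.09% ± 0.0721 (SD, n = 2) in RT112 and 1.12% ± 0.0108 (SD, n = 2) in UM-UC-3, a difference of 0.0343 percentage points with overlapping replicates (two-sided exact permutation test of the libraries, p = 1, the smallest that 2 against 2 can give being 0.33). The numbers of peaks per library differed far more than their shares.

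The 3′ UTRs covered 39.1 Mb, or 1.37% of the assembly without gaps, and held fewer peaks than their length. Their density was 28.1, 16, 31.2 and 33.0 peaks per Mb in RT112 replicates 1 and 2 and UM-UC-3 replicates 1 and 2, against 33.7, 21.1, 38.2 and 39.9 per Mb over the genome. To set the numbers beside the neighbourhood of the same peaks, each list was moved as a whole along its chromosomes by 100 kb to 1000 kb in steps of 100 kb, in both directions. Over these 20 shifts the number in 3′ UTRs had a lowest, median and highest value of 1260, 1316 and 1415 in RT112 replicate 1 and of 795, 826.5 and 900 in RT112 replicate 2. The same values were 1404, 1459 and 1505 for the first UM-UC-3 list and 1459, 1531 and 1583 for the second. In each of the 4 libraries all 20 shifts gave more peaks in 3′ UTRs than the list as deposited.

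**Figure D1:**
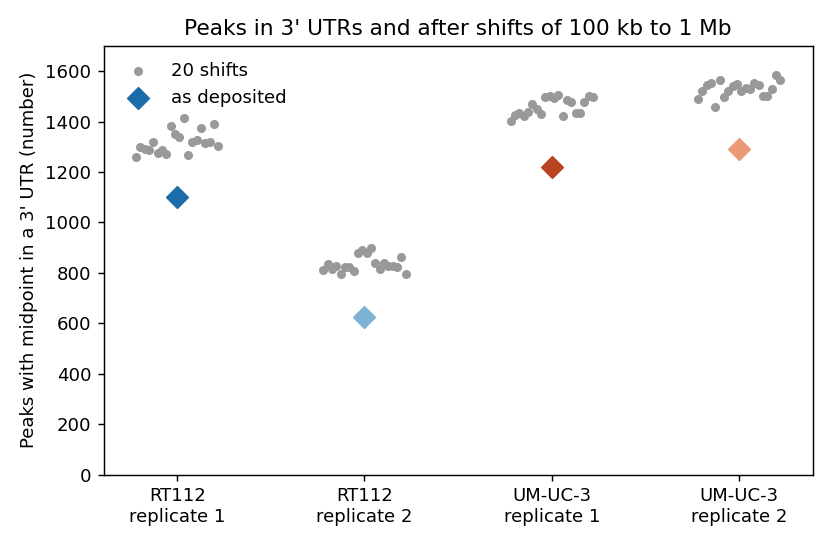
The number of peaks with the midpoint in a 3′ UTR (vertical axis) in each of the 4 libraries (horizontal axis), as deposited (coloured diamonds) and after each of 20 shifts of 100 to 1000 kb (grey points). The diamonds sit at 1099, 625, 1219 and 1290, below every grey point of their library.

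Divided by the mean over the shifts, the observed numbers were 0.833 and 0.748 in the RT112 replicates and 0.835 and 0.843 in the UM-UC-3 replicates. The means were 0.790 ± 0.0599 (SD, n = 2) in RT112 and 0.839 ± 0.00571 (SD, n = 2) in UM-UC-3. Both UM-UC-3 values were above both RT112 values, though RT112 replicate 1 was nearly level with UM-UC-3 replicate 1, and the difference of means was 0.0485 (two-sided exact permutation test, p = 0.33, the smallest possible). That difference rested on RT112 replicate 2, being 0.00611 without it and 0.0908 without RT112 replicate 1, and it was 0.00591 without members within 3 kb of a transcript start site. Coding exons, the translated part of mature mRNAs, held 847, 561, 862 and 917 peaks, which were 0.737, 0.783, 0.668 and 0.673 of their shifted numbers. The 3′ UTR ratio was higher than the coding one in 3 libraries and lower in RT112 replicate 2. The mean difference was 0.0993 ± 0.0958 (SD over the 4 libraries), and the two-sided exact sign-flip permutation test gave p = 0.25, where 0.13 is the smallest possible. The difference between 3′ UTRs and coding exons thus did not have the same sign in every library. It was 0.0113 among peaks with a score of 5 or more (exact p = 0.875) and 0.0269 without members within 3 kb of a start site (exact p = 0.5).

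Most of these peaks were inside the untranslated exon and not across its border. Between 82.0% and 84.3% of them in a library lay wholly within 3′ UTR sequence outside coding sequence. The annotated principal transcript of the gene (the canonical transcript of Ensembl) held 82.7% and 80.3% of the RT112 members and 83.1% and 83.6% of the UM-UC-3 members, and the rest lay in the 3′ UTR of an alternative transcript. A start site of some annotated transcript was within 3 kb of 24.1% and 25.1% of the members in RT112 and of 27.6% and 29.2% in UM-UC-3. Only 9, 7, 11 and 14 members lay in the 3′ UTR of more than 1 gene.

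The base composition of the 300 bp around the midpoint separated the 2 cell lines. Among AT-rich windows with a GC content below 35%, RT112 replicates 1 and 2 had 157 and 73 members, while UM-UC-3 replicates 1 and 2 had 333 and 346. Against the shifted lists these numbers were 0.433 and 0.322 for RT112 and 0.795 and 0.785 for UM-UC-3. The lines did not overlap, and their means differed by 0.413 (two-sided exact permutation test, p = 0.33, the smallest possible). In windows of 35 to 45% GC the ratios were 1.01, 0.894, 0.969 and 0.972, near the shifted numbers in both lines. In windows of 45 to 55% GC they were 1.22 and 1.17 in RT112, against 0.926 and 0.936 in UM-UC-3, so RT112 lay above its shifted numbers and UM-UC-3 below. In GC-rich windows of 55% or more, both lines had few members, 44, 28, 35 and 48, at ratios of 0.323, 0.315, 0.238 and 0.312.

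Peaks outside 3′ UTRs were also fewest against their shifts at 55% GC or more and had higher ratios throughout. For those other peaks the ratio below 35% GC was 0.601 and 0.506 in RT112, versus 0.891 and 0.885 in UM-UC-3. At 45 to 55% GC it was 1.34 and 1.41 in RT112 and 1.14 in both UM-UC-3 replicates, and at 55% or more it lay between 0.425 and 0.483. In each of the 4 classes and each of the 4 libraries the ratio of 3′ UTR peaks was below that of the other peaks. When the shifted number in each GC class was multiplied by the ratio of the other peaks, the observed 3′ UTR peaks were 0.860, 0.776, 0.855 and 0.864 of the sum. These values lay within 0.0274 of the ratios without GC classes.

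**Figure D2:**
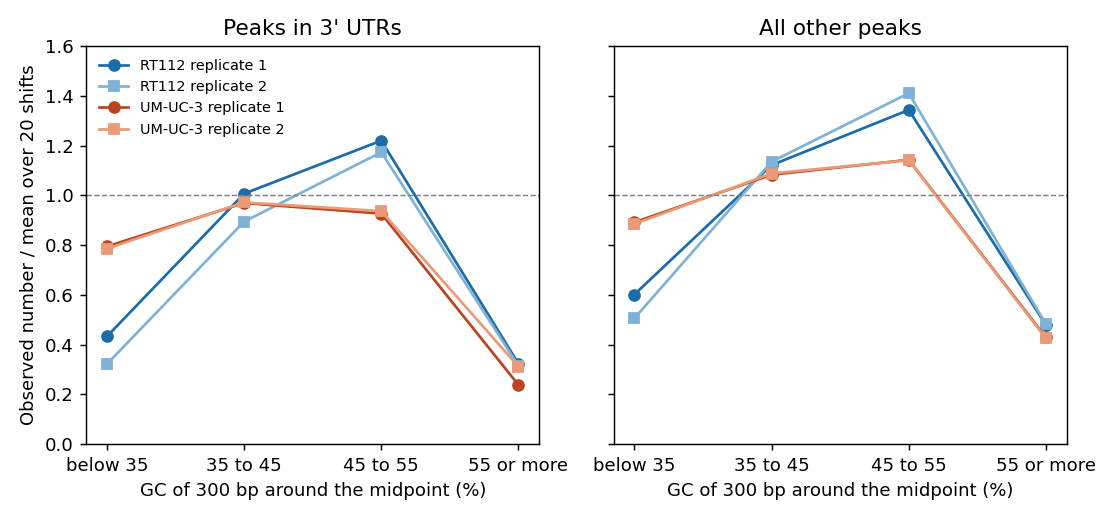
Observed number of peaks divided by the mean number over 20 shifts (vertical axis) by GC content of the 300 bp around the midpoint (horizontal axis), for peaks in 3′ UTRs (left) and all other peaks (right), with 1 line per library and a dashed line at 1. Below 35% GC the RT112 lines start at 0.433 and 0.322 and the UM-UC-3 lines at 0.795 and 0.785 in 3′ UTRs, and all lines are low at 55% or more.

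The median GC content of the members was 43% and 44% in RT112 and 40% in both UM-UC-3 replicates. Peaks outside 3′ UTRs had medians of 42% and 42.7% in RT112 and 40% in both UM-UC-3 replicates, so the lines differed in the same direction there. Shifted 3′ UTR positions had medians between 40.3% and 40.7%, and the 3′ UTRs as a whole were 42% GC. Windows below 45% GC made up 58.6% and 55.7% of the members in RT112, under the 64.1% and 63.9% of shifted positions. In UM-UC-3 they made up 69.8% and 69.2%, over the 65.3% and 65.6% of shifted positions.

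Purine skew, the distance of the purine content of the window from 50%, was examined after the sequences above had been seen. A skew of 10 percentage points or more was found for 111, 85, 127 and 144 members, which is 10.1%, 13.6%, 10.4% and 11.2% of them. At shifted 3′ UTR positions the share was 7.13%, 7.48%, 7.07% and 6.96%. Of the 3 skew classes, this was the one in which 3′ UTR peaks outnumbered their shifted lists in both lines, at ratios of 1.18 and 1.36 for RT112 and 1.23 and 1.35 for UM-UC-3. Windows with a skew below 5 points had ratios of 0.786, 0.639, 0.798 and 0.765. Peaks outside 3′ UTRs had higher shares at 10 points or more, with 20.7%, 23.1%, 20.4% and 20.7%. Their shares were not set beside shifted positions outside 3′ UTRs, so their ratio to shifts is not known.

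On the strand of the mRNA, the skewed members were pyrimidine-rich more often than purine-rich. The pyrimidine-rich share was 61.3% and 67.1% in RT112, against 68.5% and 61.8% in UM-UC-3. Shifted positions with the same skew were pyrimidine-rich at 63.7%, 62.6%, 65.7% and 66.6%, so the members lay on both sides of the shifted values. The purine shares given above for VAMP1, ZSCAN20, ACSM2B and IGF1 are of the whole peak and not of this window.

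**Figure D3:**
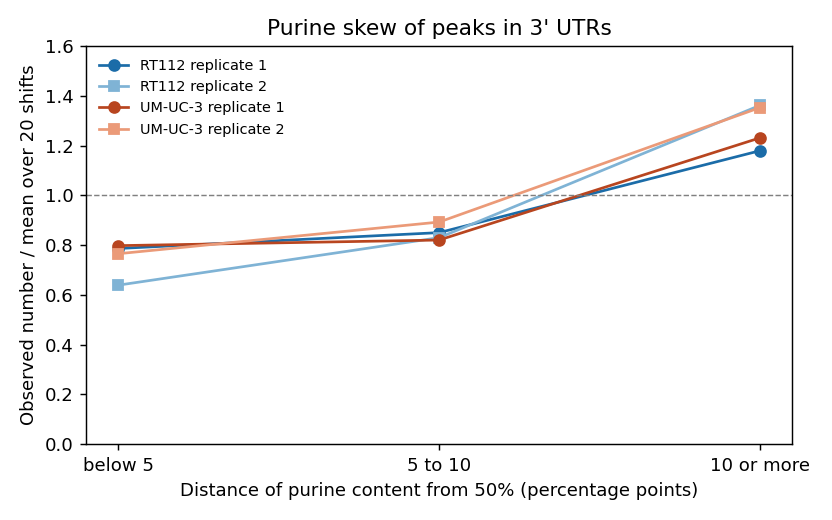
Observed number of 3′ UTR peaks divided by the mean number over 20 shifts (vertical axis) by the distance of the purine content of the 300 bp window from 50% (horizontal axis, percentage points), with 1 line per library and a dashed line at 1. The 4 lines lie below 1 at a skew below 5 points (0.639 to 0.798) and above 1 at 10 points or more (1.18 to 1.36).

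The hexamer AATAAA, the usual polyadenylation signal, was searched on the mRNA strand of the same 300 bp. It was present in 242 and 124 members of RT112, or 22% and 19.8%, and in 308 and 312 members of UM-UC-3, or 25.3% and 24.2%. Shifted 3′ UTR positions held it in 25.2%, 24.8%, 24.9% and 24.7% of windows. The RT112 replicates were below their shifted share and the UM-UC-3 replicates lay on either side of it.

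Distance to the annotated transcript end, the nearest one where several transcripts of the gene held the midpoint in their 3′ UTR, was described in 5 classes. Within 0.2 kb of the end there were 156, 88, 215 and 227 members, at 0.724 and 0.636 of the shifted number in RT112, versus 0.905 and 0.910 in UM-UC-3. At 2 kb or more from the end the ratios were 0.917, 0.705, 0.860 and 0.902. In no distance class did any of the 4 libraries exceed its shifted number, the highest ratio being 0.934 at 1 to 2 kb in RT112 replicate 2. Around the ends of 19336 genes, the last 0.5 kb before the end held 0.726, 0.618, 0.782 and 0.732 of the shifted number of midpoints. All other 0.5 kb steps from 3 kb before to 3 kb after the gene end were below 1 in each library too. In the 3 kb after the annotated gene end the ratios ran from 0.756 to 0.965, with neighbouring genes not left out. In both UM-UC-3 replicates the step from 1 to 0.5 kb before the end was lower than the last 0.5 kb, at 0.700 and 0.728.

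Long 3′ UTRs held most of the peaks. Genes whose merged 3′ UTR was 4 kb or longer carried 626 and 350 members for RT112 and 611 and 659 for UM-UC-3, at 0.977, 0.872, 0.856 and 0.880 of the shifted numbers. Between 1 and 2 kb the ratios were 0.613 and 0.564 in RT112, against 0.809 and 0.831 in UM-UC-3. Between 0.5 and 1 kb they were 0.704, 0.501, 0.613 and 0.597. The median 3′ UTR of the genes behind the members was 4424 bp in both RT112 replicates and 4021 and 4062.5 bp in the UM-UC-3 replicates, while shifted positions gave 3857 to 3905 bp and the median over all genes with a 3′ UTR was 1245 bp.

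Genes were counted as well. A 3′ UTR peak was found in 983, 588, 1125 and 1203 genes in the 4 libraries. Between 88.8% and 92.9% of those genes had 1 such peak, and the most in 1 gene was 4, 3, 4 and 6. Of 19658 genes with a 3′ UTR, 395 (2.01%) had one in both replicates of RT112, 861 (4.38%) in both of UM-UC-3, 71 (0.361%) in all 4 libraries and 2371 (12.1%) in any library. The median 3′ UTR of the 71 genes was 7340 bp, and that of the 17287 genes without a peak was 1047 bp. By length class, a peak in any library was found for 1.32% of genes with a 3′ UTR below 0.5 kb, 3.72% at 0.5 to 1 kb, 8.50% at 1 to 2 kb, 17.7% at 2 to 4 kb and 38.7% at 4 kb or more.

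**Figure D4:**
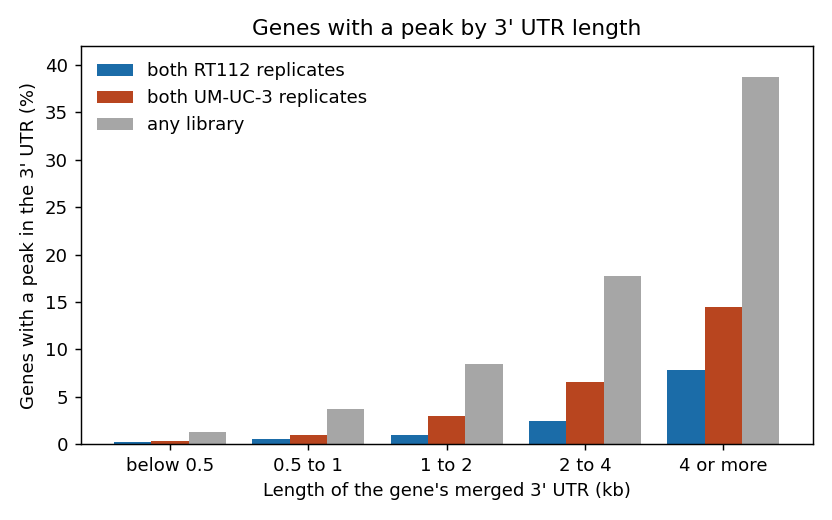
Percent of genes with a peak in the 3′ UTR (vertical axis) by the length of the gene's merged 3′ UTR in kb (horizontal axis), in both RT112 replicates, both UM-UC-3 replicates or any library (bars). The bars for any library rise from 1.32% to 38.7% over the 5 classes.

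Scores were examined next. The score is the −log10 of a p or q value given by the peak caller, so a higher score is a stronger call. It takes a limited set of values, and the median was identical for 3′ UTR peaks and all other peaks of a library, at 3.80, 4.09, 3.88 and 3.85. The share with a score of 5 or more was 32.2%, 38.7%, 42.7% and 42.4% in 3′ UTRs and 33.9%, 42.7%, 44.8% and 44.9% elsewhere. The difference was negative in all 4 libraries, with a mean of -2.59 percentage points ± 1.01 (SD over the 4 libraries), and the two-sided exact sign-flip permutation test gave the smallest p it can, 0.13. At a score of 10 or more the shares were 7.92%, 7.52%, 8.12% and 8.22% against 10.1%, 8.76%, 9.17% and 9.19%, a mean difference of -1.36 ± 0.564 (SD over the 4 libraries) with the same exact p = 0.13. High scores were thus somewhat rarer in 3′ UTRs in every library, but the 4 differences are not independent, since replicates of 1 line share peaks. Median widths were 290, 266, 270 and 267 bp in 3′ UTRs and 294, 265, 274 and 270 bp elsewhere.

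Replicates of 1 line shared many of these peaks. A peak of the other replicate overlapped, by at least 1 bp, 392 of the 1099 members of RT112 replicate 1 (35.7%) and 402 of the 625 of RT112 replicate 2 (64.3%). In UM-UC-3 it overlapped 910 members in either replicate, 74.7% of the first and 70.5% of the second. All other peaks overlapped at 38.2%, 61.3%, 74.9% and 71.8%, and the members differed from them by -0.236 percentage points ± 2.40 (SD over the 4 libraries; two-sided exact sign-flip permutation test, p = 0.875). Sharing moved with score in every library. In RT112 replicate 1 it was 13.0% for 353 members with a score below 3 and 80.5% for 87 members with a score of 10 or more, and the same classes of UM-UC-3 replicate 1, with 344 and 99 members, reached 59.9% and 89.9%.

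Sharing between the cell lines was rare. A peak of either library of the other line overlapped 68 members of RT112 replicate 1 (6.19%) and 41 of the second RT112 list (6.56%). In UM-UC-3 it overlapped 60 (4.92%) and 68 (5.27%). The other peaks of the same libraries overlapped at 7.03%, 7.74%, 5.99% and 5.92%. The members were lower in 4 of 4 libraries, by a mean difference of -0.937 percentage points ± 0.236 (SD over the 4 libraries; two-sided exact sign-flip permutation test, p = 0.13, the smallest possible). These 4 differences are not independent, since replicates share peaks and an overlap between the lines is counted from both sides.

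**Figure D5:**
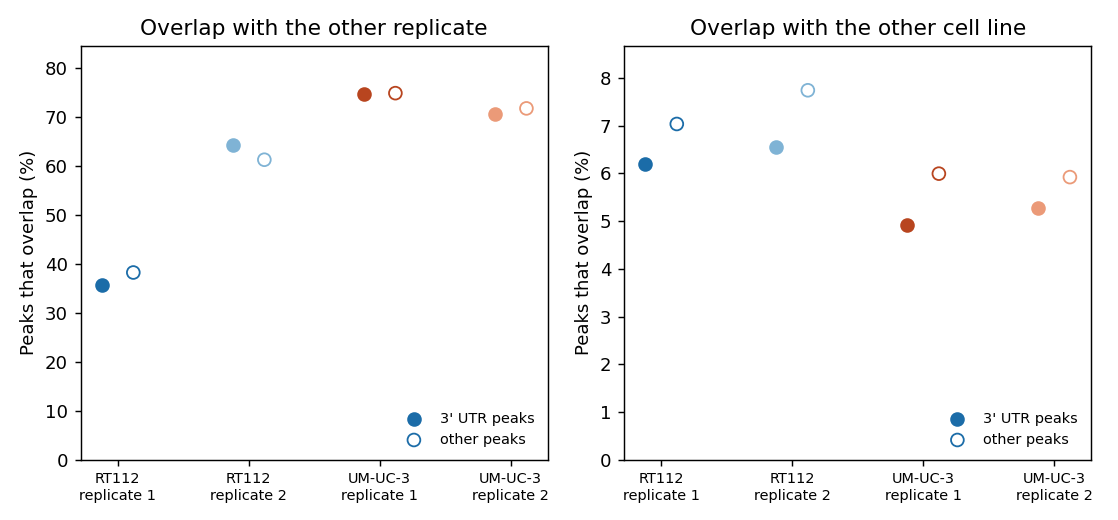
Percent of peaks that overlap a peak of the other replicate (left) and of either library of the other cell line (right), for 3′ UTR peaks (filled points) and all other peaks (open points) of each library. On the right the filled points, at 6.19, 6.56, 4.92 and 5.27%, all lie below the open ones.

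Of the 2862 merged places, 670 and 219 were found only in RT112 replicate 1 or only in RT112 replicate 2, and 305 and 370 only in UM-UC-3 replicate 1 or only in UM-UC-3 replicate 2. Both RT112 replicates and no UM-UC-3 library held 368, and both UM-UC-3 replicates and no RT112 library held 855. A further 58 places were found in both lines but not in all 4 libraries, and 17 in all 4. The counts here are of 3′ UTR peaks alone, so a place can still overlap a peak of another library whose midpoint is not in a 3′ UTR.

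In RT112 the best-ranked 3′ UTR peak shared by the replicates was at DSCAM, a cell adhesion molecule of neurons, with scores of 35.2 and 39.0 in replicates 1 and 2 and no overlapping peak in UM-UC-3. Its midpoint was 61 and 50 bp before the end of the nearest transcript, which is not the far end of the gene. SIK3, a salt-inducible kinase, had scores of 33.3 and 39.0, and RBFOX2, a splicing regulator, 33.3 and 31.3, both with no overlapping peak in UM-UC-3. With all coding transcripts, RBFOX2 had a 3′ UTR peak in 4 libraries in place of 2. ZNF471, a zinc finger protein, had 26.1 and 25.8 and no overlapping UM-UC-3 peak.

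In UM-UC-3 the best-ranked was at IGF1, the insulin-like growth factor, with scores of 64.1 and 61.6, the highest of all 3′ UTR peaks in either UM-UC-3 replicate. This peak (chr12:102811189-102811577) had its midpoint 114 bp before the end of an alternative transcript of IGF1 and not in the 3′ UTR of the principal one. RT112 had overlapping peaks with scores of 10.1 and 9.32, whose midpoints did not count as 3′ UTR. NDRG2, a gene of the N-myc downstream-regulated family, had scores of 35.7 and 31.5, with the midpoints 5 and 16 bp before the nearest transcript end, which was a different end in each replicate. CRTAP, a cartilage-associated protein that acts in collagen modification, had 29.9 and 28.1, and CAPN6, a calpain family member, 27.6 and 23.7. NDRG2, CRTAP and CAPN6 had no overlapping peak in RT112, although CAPN6 had a 3′ UTR peak at another position in RT112 replicate 1. Without members within 3 kb of a transcript start site, IGF1, NDRG2 and CRTAP had a 3′ UTR peak in 0 libraries, and NDRG2 also had 0 when any overlap with a 3′ UTR and none with coding sequence was asked.

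VAMP1, a synaptic vesicle protein, had the best rank over all 4 libraries, with scores of 32.7 and 23 in RT112, versus 30.9 and 30.8 in UM-UC-3. Its peak (chr12:6573561-6573805 in RT112 replicate 1) also lay in the 3′ UTR of an alternative transcript only. VAMP1 counted in 4 libraries by the midpoint, but in 0 when overlap with coding sequence was barred, in 0 without members within 3 kb of a start site and in 1 with 1 transcript a gene. XPO4, a nuclear transport receptor, had scores of 11.6 and 5.29 for RT112 and 23.8 and 23.7 for UM-UC-3, so both UM-UC-3 values were above both RT112 values. ZSCAN20, a zinc finger protein, had 17.5, 12.4, 12.5 and 6.15 in the 4 libraries. ACSM2B, a mitochondrial acyl-CoA synthetase, had 8.75, 15.5, 9.65 and 6.57, but it has a near-identical neighbour, ACSM2A, and reads of the 2 genes may not be told apart. NOVA2 (an RNA-binding splicing factor), METTL13 (a methyltransferase), ASTN1 (an astrotactin of neurons) and FRK (a tyrosine kinase) completed the genes named from the 17 shared places, with scores from 3.85 to 12.8.

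Some genes held several 3′ UTR peaks. KSR2, a scaffold of the MAP kinase pathway with a 3′ UTR of 14190 bp, had 3 and 3 in RT112, against 2 and 2 in UM-UC-3. PPP2R2B, a regulatory subunit of protein phosphatase 2A, had 4 and 2 against 2 and 1. DTNA, a dystrobrevin, had 2 and 3 in RT112 and 0 in both UM-UC-3 replicates. LRRC7, a postsynaptic scaffold with a 3′ UTR of 24000 bp, had 2 and 0 in RT112, versus 4 and 6 in UM-UC-3. DNAJC10, a chaperone of the endoplasmic reticulum, had 0 in both RT112 replicates and 3 and 4 in UM-UC-3.

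Gene lists were described by the number of genes with a 3′ UTR peak in both replicates of a line, beside 2.01% of all genes for RT112 and 4.38% for UM-UC-3. Of 46 bladder cancer genes, RT112 had E2F3, a transcription factor amplified in bladder tumours, at scores of 22.7 and 10.8. UM-UC-3 had EGFR, the epidermal growth factor receptor, at 4.51 and 5.67 and TSC1, a suppressor of mTOR signalling, at 3.73 and 2.63. That is 2.17% of the list for RT112 and 4.35% for UM-UC-3, close to all genes. Of 18 genes of the plasminogen activator system, 0 were found for RT112 and 1 for UM-UC-3, the integrin subunit ITGB3 with scores of 3.88 and 5.16.

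Of 17 genes of the microRNA machinery with a 3′ UTR, AGO3, an Argonaute protein that binds microRNAs, was found in both lines, and DICER1, which cuts their precursors, in UM-UC-3. That is 5.88% of the list for RT112 and 11.8% for UM-UC-3. The median 3′ UTR of this list was 3273 bp, against 1245 bp over all genes. The AGO3 peaks of the 2 lines were at different positions of a 3′ UTR of 17518 bp, and none of them overlapped a peak of the other line. Their scores lay between 2.13 and 4.94, and AGO3 counted in 0 libraries at a score of 5 or more. The DICER1 peak, at 3.88 and 5.16, lay in an alternative transcript only. DICER1 counted in 0 libraries when any overlap with a 3′ UTR and none with coding sequence was asked. Of 34 genes whose mRNAs carry AU-rich elements, HMGA2, a chromatin architectural protein, counted in RT112, with peaks of the 2 replicates at different positions, and CCND2, the cyclin D2 gene, in UM-UC-3 with a shared peak at 9.20 and 13.9. Of 20 cleavage and polyadenylation factors, 0 had a peak in both replicates of either line. A peak in any library was found for 3 of them (15%), against 12.1% of all genes. Of the 12 genes the study tested by ChIP-PCR, 0 were found for RT112 and 1 for UM-UC-3, the chromatin protein gene HMGB1 at 3.88 and 3.85.

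The study's own gene lists were drawn up partly by nearness to these peaks, so their counts are no independent evidence. Of 468 genes of its RT112 list, 10 had a 3′ UTR peak in both replicates of RT112 (2.14%) and 19 in both of UM-UC-3 (4.06%). Of 432 genes of its UM-UC-3 list, 9 (2.08%) and 20 (4.63%) did. Of the 57 genes on both, 2 did in RT112 and 2 in UM-UC-3. These shares were near those of all genes.

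Of 513 zinc finger genes named ZNF, 14 (2.73%) had a 3′ UTR peak in both replicates of RT112 and 42 (8.19%) in both of UM-UC-3, the latter above the 4.38% of all genes. Their median 3′ UTR was 1946 bp, longer than that of all genes. In both UM-UC-3 replicates, a peak was found for 3.02% of all genes with a 3′ UTR of 1 to 2 kb. The share was 6.60% at 2 to 4 kb and 14.5% at 4 kb or more. Whether length accounts for the share of ZNF genes was not tested. Counted as peaks, 49, 18, 55 and 67 members lay in their 3′ UTRs in the 4 libraries, where the shifts gave from 33 to 51, 20 to 34, 32 to 64 and 31 to 70. Against the mean of the shifts these were 1.16 and 0.659 for RT112 and 1.12 and 1.27 for UM-UC-3. All 3′ UTR peaks together were at 0.833 and 0.748 for RT112 and 0.835 and 0.843 for UM-UC-3. The number in UM-UC-3 lay inside the range of the shifts in both replicates, and that of RT112 replicate 2 below it.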

How the data were processed

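The authors performed chromatin immunoprecipitation with an anti-PAI-1 antibody (clone 3F2) on 2 biological replicates each of RT112 and UM-UC-3 cells, mapped the reads to hg19 with Bowtie 1.1.1 with its default settings, discarded PCR duplicates (Picard), and called peaks with MACS2 2.1.0.20140616. FastQC and Trimmomatic are also named in the submitters' processing notes. Whether the input libraries served as control, the calling threshold and any pooling are not given in the sources used here. The deposited score of each peak is the −log10 of a p or q value from the peak caller, and which of the 2 is not stated. The lists hold no counts, so depth is unknown and no interval that needs it is given.

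Each peak was reduced to its midpoint, identical intervals of a list were counted once, and midpoints were placed on GENCODE 44 lifted to GRCh37 (20163 protein-coding genes, 19658 with a 3′ UTR). Shifts wrapped at the chromosome end, and about 0.762 to 0.803% of shifted midpoints fell in assembly gaps. Groups were the cell lines of the labels. Libraries were compared by two-sided exact permutation tests, members and other peaks of the same libraries by exact sign-flip permutation tests, and neither can pass 0.05 at this size. The sign-flip tests and the SDs over 4 libraries treat the libraries as independent, which replicates of 1 line are not. The 20 shifts serve as a description and carry no p-value. The code was tested on simulated data. Python 3.11.15, numpy 2.4.6 and pandas 2.3.3 were used.

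Named genes were, for each line, the 6 with the best mean score rank among 3′ UTR peaks shared by the replicates, up to 8 with overlapping 3′ UTR peaks in all 4 libraries, the 3 with the most 3′ UTR peaks, and list genes found in both replicates of a line. Some genes that the rule names are not reported here. The members and lists were chosen with earlier results of these data known. The shares at scores of 5 and 10, the GC classes of other peaks, purine skew and the shifts for ZNF genes were added after values had been seen. Alternatives were other definitions of the 3′ UTR and of membership, other shifts, a score minimum, another overlap rule, a replicate block and leaving out each library.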

Additional observations from a re-analysis of the deposited data

Results flagged for a closer look

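In 3′ UTR windows of 45 to 55% GC, the ratio to shifted numbers was above 1 in both RT112 replicates (1.22 and 1.17). It was below 1 in both UM-UC-3 replicates (0.926 and 0.936). These UM-UC-3 values still exceeded the ratios of all 3′ UTR peaks in the same replicates, 0.835 and 0.843. Each RT112 replicate also exceeded its own, 0.833 or 0.748. Peaks outside 3′ UTRs were above 1 at this GC content in every library. Their ratios were 1.34 and 1.41 for the RT112 replicates, with 1.14 for each UM-UC-3 replicate. RT112 was thus higher for both kinds of peak, and the lines lay on different sides of 1 for 3′ UTR peaks alone. The difference between the lines was not tested.

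The percent of 3′ UTR peaks in windows below 45% GC, minus the percent of shifted positions, was -5.55 and -8.26 percentage points in RT112, against 4.50 and 3.65 in UM-UC-3. This difference in direction was likewise not tested. Peaks outside 3′ UTRs had a median GC content of 42% and 42.7% in RT112 and 40% in both UM-UC-3 replicates. A higher GC content in RT112 was thus not particular to 3′ UTR peaks. The percent below 45% GC against shifts is not given here for those other peaks. Both results come from the GC content of the same windows. Groups of 2 libraries are too small for a check of single outlying samples.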

How the results depend on the processing

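The number of 3′ UTR peaks stayed below the mean of the shifts in all 22 values for a cell line from 13 alternatives, with ratios from 0.715 to 0.872. The ratio in RT112 became 0.715 at a score of 5 or more and 0.856 without members within 3 kb of a start site. In UM-UC-3 (0.839) it became 0.818 with 1 transcript a gene, 0.845 with all coding transcripts, 0.787 at a score of 5 or more, 0.862 without members near a start site, 0.830 with shifts of 1.1 to 2 Mb and 0.872 with shifts of 20 to 100 kb. It was 0.832 with shifted midpoints in assembly gaps left out, an alternative chosen after seeing the data. The difference of this ratio between the lines ranged from 0.00611 to 0.0908 when single libraries were left out and was 0.00591 without members near a start site. The difference between 3′ UTRs and coding exons ranged from 0.0113 (score of 5 or more) to 0.144 (without RT112 replicate 2).

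The share in RT112 and UM-UC-3 became 0.890% and 0.939% with 1 transcript a gene, 1.17% and 1.21% with all coding transcripts, 1.01% and 1.07% at a score of 5 or more, 0.821% and 0.804% without members near a start site, and in UM-UC-3 1.1% when any overlap with a 3′ UTR and none with coding sequence was asked. The difference between the lines changed sign without members near a start site (-0.0169 percentage points) and ranged from -0.0167 (without RT112 replicate 2) to 0.0853 (without RT112 replicate 1) when single libraries were left out. Whether same-numbered replicates share more than a number is not known. Their numbers of 3′ UTR peaks deviated from the line means with opposite signs in the 2 lines. With 2 replicates a line this cannot decide the question. With a replicate block the difference was 0.0343 ± 0.0829 (SD over 2 pairs, exact p = 1, the smallest possible being 0.5).

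Sharing between the replicates of UM-UC-3 became 60.3% at a score of 5 or more, and the difference between members and other peaks changed sign to 0.373 percentage points without members near a start site. Sharing with the other line became 6.66% in RT112 with 1 transcript a gene, 6.05% without members near a start site and 4.07% with reciprocal overlap of 50%, and in UM-UC-3 3.23% with that overlap and 3.67% at a score of 5 or more. The mean difference in sharing between lines, members minus other peaks, stayed negative in every alternative run, from -1.20 to -0.235 percentage points. The value of -0.235 was at a score of 5 or more (exact sign-flip permutation test, p = 0.5). Not every library was lower at that setting. Genes with a peak in both replicates numbered 151 in RT112 and 314 in UM-UC-3 at a score of 5 or more. For the named genes, the number of libraries with a 3′ UTR peak changed in 28 of 160 comparisons, 14 of them at a score of 5 or more. Leaving out a library gives no sharing between replicates of its line and no such gene count, and those were not run. The cause of these changes was not tested.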
